A study of Homo sapiens with 6 samples.

Results

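The genes of the MYC family and of the TRIB pseudokinase family were examined as sites of TLE3 occupancy. These 6 genes were MYC, MYCN, MYCL, TRIB1, TRIB2 and TRIB3. Peaks of 4 ChIP-seq libraries that shared at least 1 bp were merged into 72272 regions. A region belonged to a gene if it touched the gene's span, or if that gene was the nearest protein-coding gene within 100 kb, which gave 54 regions. Chromatin came from the MDA-MB-453 line, breast cancer cells labelled as breast epithelial, and was precipitated with an antibody to TLE3. Cells of 2 libraries had FOXA1 transiently silenced (siFOXA1 1 and 2), and those of 2 others carried the siNS control (siNS 1 and 2). The question was whether TLE3 needs FOXA1 in order to bind. The 2 input libraries, labelled MDA-MB-454, were not analysed here, and peak lists hold no expression from which the cell type could be checked.

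MYC, MYCN and MYCL are basic helix-loop-helix leucine zipper factors that pair with MAX on E-box sequences and drive genes of growth and metabolism. The TRIB proteins have a kinase fold with little or no catalytic activity and act as scaffolds. They bring the ubiquitin ligase COP1 to clients such as C/EBPα, and they bind MEK1 and AKT. TLE3 is a Groucho-family corepressor without a DNA-binding domain of its own, and FOXA1 is a forkhead protein that opens chromatin in luminal cells of the breast.

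RefSeq promoter sequences (GRCh38.p14) were at hand for 4 of the genes. They are shown because both siNS libraries had a peak over each of them and neither siFOXA1 library did. Each run is the 250 bases before an annotated start, 5′ to 3′ on the gene's strand. The windows are chr2:15940300-15940549 (plus strand) for MYCN, chr1:39901918-39902167 (minus strand) for MYCL, chr2:12716686-12716935 (plus strand) for TRIB2 and chr20:381045-381294 (plus strand) for TRIB3. The TRIB3 window is the first of 3 listed for that gene.
MYCN: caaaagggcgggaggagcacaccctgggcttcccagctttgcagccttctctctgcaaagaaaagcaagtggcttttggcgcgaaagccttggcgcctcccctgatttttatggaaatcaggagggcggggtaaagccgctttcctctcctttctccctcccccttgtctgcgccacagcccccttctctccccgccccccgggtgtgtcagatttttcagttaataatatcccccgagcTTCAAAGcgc
MYCL: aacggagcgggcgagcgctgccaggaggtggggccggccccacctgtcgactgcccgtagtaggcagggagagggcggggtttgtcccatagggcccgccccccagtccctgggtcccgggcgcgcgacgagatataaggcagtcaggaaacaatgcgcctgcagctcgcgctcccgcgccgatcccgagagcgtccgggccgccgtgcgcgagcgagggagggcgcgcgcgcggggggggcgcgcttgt
TRIB2: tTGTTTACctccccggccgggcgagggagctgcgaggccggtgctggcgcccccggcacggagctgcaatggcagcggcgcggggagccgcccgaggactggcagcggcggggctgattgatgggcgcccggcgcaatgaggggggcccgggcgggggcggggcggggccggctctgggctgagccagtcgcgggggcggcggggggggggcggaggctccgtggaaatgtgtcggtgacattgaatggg
TRIB3: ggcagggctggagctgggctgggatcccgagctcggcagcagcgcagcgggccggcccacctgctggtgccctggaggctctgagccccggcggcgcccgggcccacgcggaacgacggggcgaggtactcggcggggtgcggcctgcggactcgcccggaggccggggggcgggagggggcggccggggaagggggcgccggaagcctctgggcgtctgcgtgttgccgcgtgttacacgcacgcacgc
Capitals mark matches to 4 motif families, searched on both strands without mismatch. The forkhead letters were TGTTTAC or TGTTTGC or TATTTAC, the E-box was CACGTG, the TCF/LEF letters were CTTTGAA and CTTTGAT, and the C/EBP-ATF letters were TGATGCAA. TRIB2 held 1 forkhead match, which begins at position -249 from the start. MYCN held 1 TCF/LEF match on the opposite strand, which begins at position -10. The MYCL and TRIB3 windows held none of these letters, and no marked match overlapped another. Of 35116 promoter windows of this length, 8.27% held a forkhead match, 6.34% an E-box, 5.94% a TCF/LEF match and 0.772% a C/EBP-ATF match. GC content was 57.2% for MYCN, 74.4% for MYCL, 76.8% for TRIB2 and 78.8% for TRIB3. Peaks of each siNS library covered all 250 bases of the MYCL, TRIB2 and TRIB3 windows. In the MYCN window they covered 164 bases in siNS 1 and 111 bases in siNS 2.

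Fewer TLE3 peaks lay at the 6 genes after FOXA1 silencing. Peaks numbered 7 in siFOXA1 1 and 12 in siFOXA1 2, against 32 in siNS 1 and 46 in siNS 2, so the groups did not overlap. The means were 9.5 ± 3.54 in siFOXA1 and 39 ± 9.9 in siNS (SD, n = 2 each). A two-sided exact permutation test of the difference of -29.5 peaks gave p = 0.333, the smallest value that 2 libraries against 2 allow. It was -6 with lists of equal length, -18.5 when only peaks that reached the median score of their list were used, -16.5 within 10 kb and -12.5 by the nearest gene of any type. The lists as a whole also differed in length, with 12249 and 13754 peaks in siFOXA1 1 and 2 and 45105 and 46586 in siNS 1 and 2. Read depth is unknown, so the part that depth, precipitation yield or list length plays in these counts was not tested. Per 10000 peaks of its list, the 6 genes had 5.71 in siFOXA1 1 and 8.72 in siFOXA1 2, against 7.09 in siNS 1 and 9.87 in siNS 2. These shares overlapped between the groups and their difference of -1.26 was smaller than the spread between replicates (exact permutation p = 0.667). Without siFOXA1 1 it was 0.24 and without siNS 2 it was 0.13, both of the opposite sign. Without siFOXA1 2 it was -2.77, without siNS 1 -2.65, and by the nearest gene of any type -0.55. It was -2.23 within 10 kb, -3.59 for peaks that reached the median score and -4.9 with lists of equal length, and in these 3 settings the groups did not overlap (exact permutation p = 0.333). Peaks of the 6 genes covered 3313 and 4775 bp in siFOXA1 1 and 2, against 25662 and 28257 bp in siNS 1 and 2, without overlap. The whole siNS lists were not only longer but also had wider peaks. Median widths over the whole lists were 336 and 347 bp in siFOXA1 1 and 2, against 419 and 446 bp in siNS 1 and 2. Bases covered by the whole lists were not computed.

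**Figure D1:**
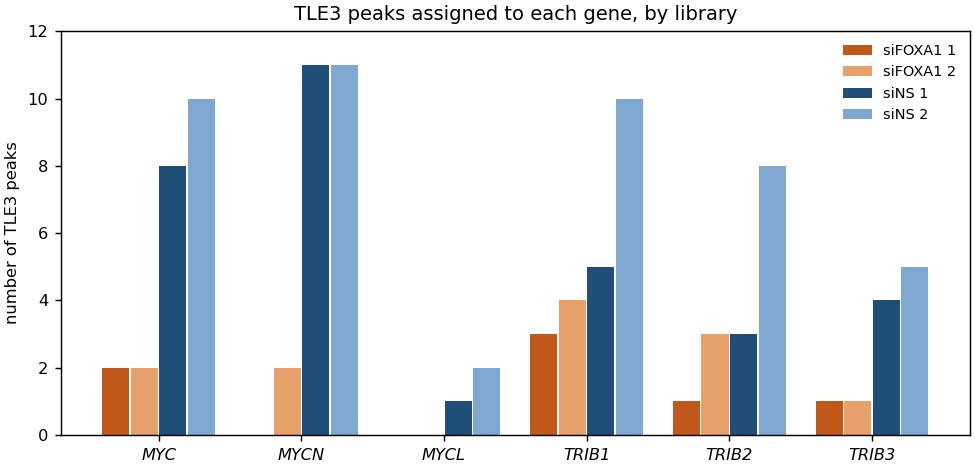
Number of TLE3 peaks (y axis) assigned to each gene (x axis) in siFOXA1 1, siFOXA1 2, siNS 1 and siNS 2 (bars from left to right). MYCN had 0 and 2 peaks in the siFOXA1 libraries and 11 in each siNS library, and MYCL had none in siFOXA1.

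The genes differed in how many peaks they had. MYC had 2 peaks in each siFOXA1 library, against 8 in siNS 1 and 10 in siNS 2. MYCN, the family member best known from neural tumours, had 0 and 2 in siFOXA1 1 and 2, against 11 in each siNS library. MYCL, first known from lung cancer, had none in either siFOXA1 library, against 1 and 2 in siNS 1 and 2. At all 3 MYC family genes, and likewise at TRIB1 and TRIB3, each siFOXA1 count was below each siNS count. The siNS lists as a whole were longer, and the share of all genes with this pattern was not computed. The pattern is therefore not read as particular to these genes. TRIB1, best known for its role in liver lipid metabolism and myeloid cells, had 3 and 4 peaks in siFOXA1 1 and 2, against 5 and 10 in siNS 1 and 2. TRIB2 had 1 and 3 in siFOXA1 1 and 2, against 3 and 8 in siNS 1 and 2, so its counts met at 3. TRIB3, a stress-induced member, had 1 in each siFOXA1 library, against 4 and 5 in siNS 1 and 2. The stretch of genome that the rule gave to a gene also differed, with 225.8 kb for TRIB2, 207.6 kb for MYC, 206.5 kb for MYCN, 139.7 kb for TRIB1, 39.1 kb for MYCL and 35.1 kb for TRIB3.

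Most regions that both siNS libraries shared had no siFOXA1 peak. There were 22 such regions, 7 at MYC, 6 at MYCN, 3 each at TRIB1 and TRIB3, 2 at TRIB2 and 1 at MYCL. Of these 22, 16 (72.7%) had no siFOXA1 peak, beside 83.0% of the 24967 such regions of the whole series. A siFOXA1 peak was kept in 6 (27.3%, exact 95% binomial interval 10.7 to 50.2%, for counting error only), beside 17.0% in the series. The series value lies inside that interval. siFOXA1 2 had a peak in all 6 and siFOXA1 1 in 3 of them. Without siFOXA1 2 the kept share was therefore 13.6%, beside 13.4% of all such regions for siFOXA1 1. For siFOXA1 2 alone it was 27.3%, beside 14.0% of all such regions. The kept regions were 2 at MYC, 2 at TRIB1, 1 at MYCN and 1 at TRIB3. A peak in both siFOXA1 libraries was present in 3 of the 22, beside 10.4% in the series.

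**Figure D2:**
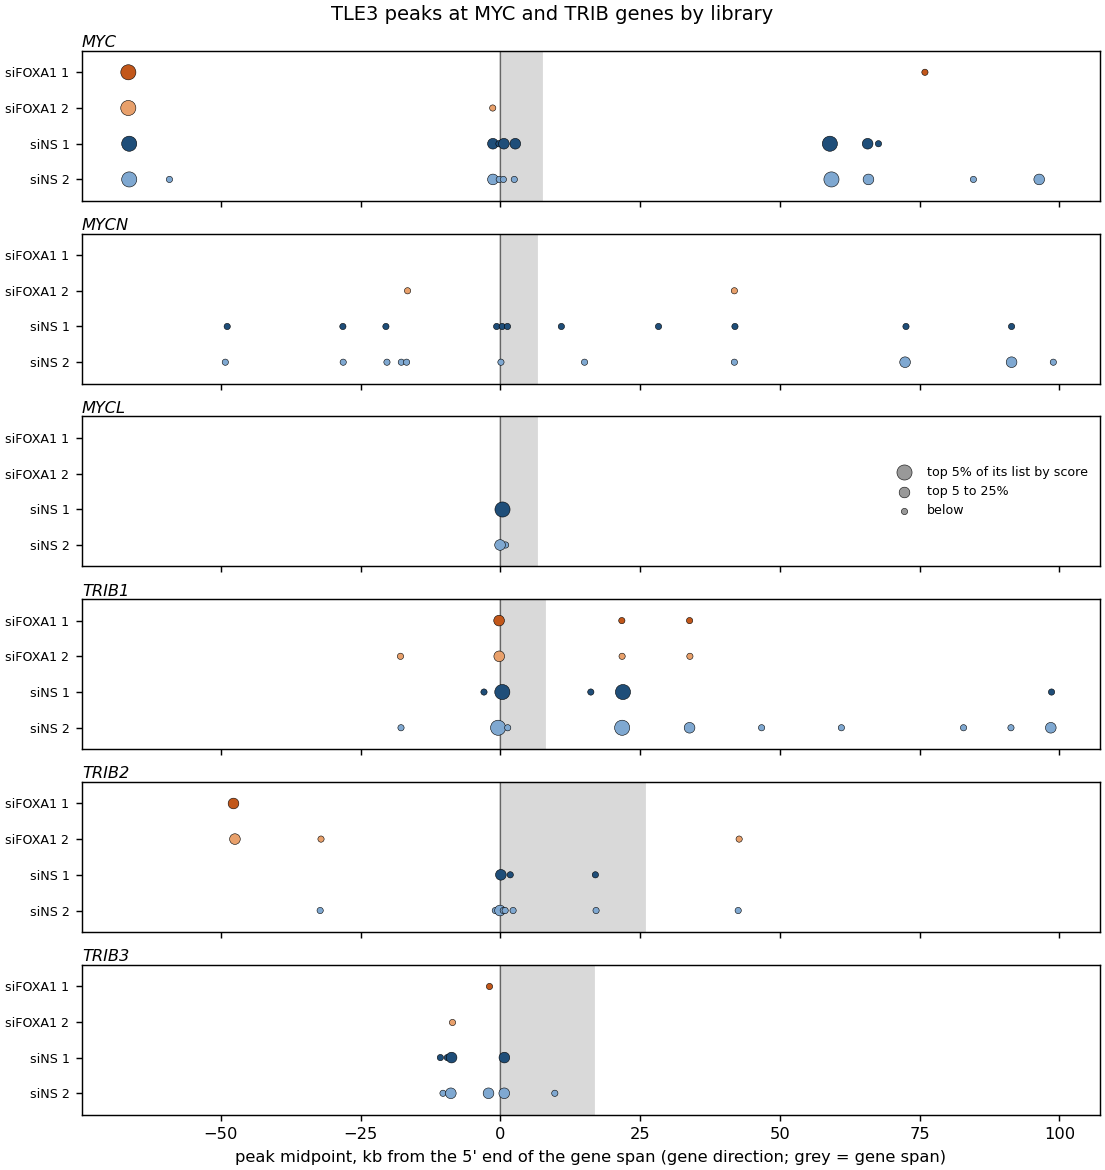
Midpoints of TLE3 peaks in kb from the 5′ end of each gene's span (x axis, in the direction of the gene), with a row for each library, siFOXA1 above siNS. Grey marks the gene span, and larger points are peaks in the top 5% or the top 5 to 25% of their own list by score. Every gene had siNS peaks over its 5′ end, and siFOXA1 peaks stood at or just before it at TRIB1.

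Every one of the 6 genes had a region over its 5′ end that both siNS libraries shared, and 5 of the 6, all but TRIB1, had no siFOXA1 peak in it. Among the 10570 regions of the series within 1 kb of a gene end that both siNS libraries shared, 93.8% had no siFOXA1 peak, so the absence of siFOXA1 peaks at these 5 genes is close to that background. Of the 15 shared regions farther from a gene end, 10 (66.7%) had no siFOXA1 peak, beside 75.1% in the series. MYC, whose 5′ end is covered by chr8:127734901-127735452, had scores of 23.7 in siNS 1 and 17.8 in siNS 2 there, which ranked in the top 27.1 and 35.3% of those lists. A second region just inside MYC (chr8:127735514-127736589) had scores of 51.5 in siNS 1 and 15.9 in siNS 2, and the next (chr8:127736869-127739319) had 35.3 in siNS 1 and 23.1 in siNS 2. Neither had a siFOXA1 peak, so no part of the MYC gene itself was under a called peak after silencing.

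The MYCL region (chr1:39900647-39902560) had scores of 86.3 in siNS 1 and 65.2 in siNS 2, in the top 4.86 and 7.5% of those lists. It was the only region of MYCL. At MYCN (chr2:15940386-15941346) the scores were 21.5 in siNS 1 and 10.6 in siNS 2, the lowest pair of the 6 gene starts. At TRIB2 (chr2:12716333-12717933) they were 65.9 and 25.8 in siNS 1 and 2, and at TRIB3 (chr20:380556-382367) 51.5 and 28.3. These MYCL, MYCN, TRIB2 and TRIB3 regions are the ones that lie over the printed promoters. Scores were used to rank peaks within 1 list only, and lists differ in length. With each list cut to its best 12249 peaks, 4 of the 6 regions (MYCL, TRIB1, TRIB2 and TRIB3) remained in both siNS lists. Of these 4, 3 had no siFOXA1 peak, all but TRIB1. The same share over all gene-end regions at this cut was not computed, so these counts have no background beside them.

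TRIB1 had one of the strongest TLE3 regions of the siNS lists over its 5′ end (chr8:125429072-125432321). The siFOXA1 peaks scored 32.5 in siFOXA1 1, rank 1075 of 12249, and 24.4 in siFOXA1 2, rank 2244 of 13754. The siNS peaks scored 641 in siNS 1, rank 7 of 45105, and 461 in siNS 2, rank 29 of 46586. Both siFOXA1 peaks were narrow and nearly coincident, 450 and 451 bp wide with midpoints at -238 and -213 bp from the 5′ end. The siNS 1 peak was 3250 bp wide, and siNS 2 had 2 peaks, of 1724 and 1318 bp. The siFOXA1 1 peak ended just before the 5′ end and the siFOXA1 2 peak just after it, while the siNS peaks also reached into the gene body. A region that ranks in the top 1% of both siNS lists and lies within 1 kb of a gene end had a peak in both siFOXA1 libraries in 72.7% of 55 cases, so a strong gene-end region with siFOXA1 peaks was common.

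**Figure D3:**
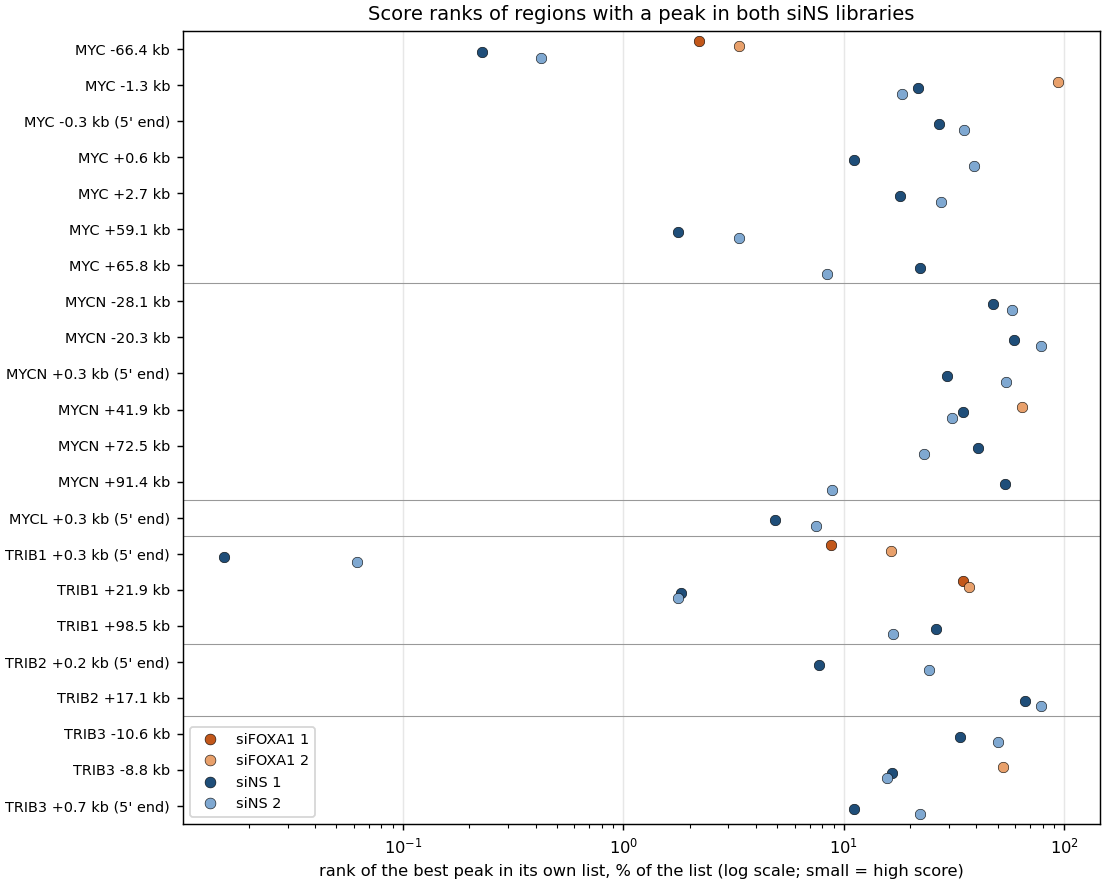
Rank of the best peak in its own list as a percentage of that list (x axis, log scale) for the 22 regions with a peak in both siNS libraries, named by gene and midpoint in kb from the 5′ end. A missing siFOXA1 point means no called peak, as in 16 of the 22 regions. Lists differ in length, so ranks are read within a library.

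TRIB1 and MYC are neighbours on the long arm of chromosome 8, and both had strong siNS regions outside the gene. The strongest region of MYC lay 65.8 kb before the gene (chr8:127668417-127669626), within the span of the non-coding gene LOC105375754. Its scores were 68.0 in siFOXA1 1 and 62.1 in siFOXA1 2, in the top 2.21 and 3.36% of those lists, against 333 in siNS 1 and 274 in siNS 2, in the top 0.228 and 0.423%. It was the best-ranked siFOXA1 region of all 6 genes. Its peaks were 840 and 883 bp wide in siFOXA1 1 and 2, against 871 and 1200 bp in siNS 1 and 2, and the midpoints of all 4 lay within a short stretch, from -66576 to -66408 bp of the MYC 5′ end. Of 243 regions in the top 1% of both siNS lists, 77.4% had a peak in both siFOXA1 libraries.

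On the other side of MYC, inside the span of the non-coding gene PVT1, the outcome differed. The region at 59.1 kb from the 5′ end (chr8:127793836-127795164) had scores of 148 in siNS 1 and 107 in siNS 2, in the top 1.76 and 3.36% of those lists, and no siFOXA1 peak. Of 1278 regions in the top 5% of both siNS lists, 29.0% had no siFOXA1 peak and 55.1% had one in both siFOXA1 libraries. A second PVT1 region at 65.8 kb (chr8:127800718-127801841) had scores of 29.1 in siNS 1 and 60.3 in siNS 2, again without a siFOXA1 peak. siFOXA1 1 alone had a weak peak further along PVT1 (chr8:127811254-127811510), with a score of 7.14 and no siNS peak. The remaining kept MYC region lay 1.1 kb before the gene (chr8:127733853-127734335), in the span of CASC11. Its siFOXA1 2 peak scored 4.51, rank 12891 of 13754, against 29.7 in siNS 1 and 33.5 in siNS 2, so it was kept by 1 of the weakest siFOXA1 2 peaks.

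TRIB1 kept a second region, 13.3 kb beyond its span (chr8:125451748-125452706). It scored 12.8 in siFOXA1 1 and 13.1 in siFOXA1 2, in the top 34.9 and 37.1% of those lists, against 145 in siNS 1 and 149 in siNS 2, in the top 1.82 and 1.78%. Another TRIB1 region, 25.5 kb beyond the span (chr8:125463946-125464446), had peaks in both siFOXA1 libraries, with scores of 7.2 and 10.1, and in siNS 2, with 28.8, but not in siNS 1. TRIB1 thus had 3 of the 5 regions of the 6 genes that both siFOXA1 libraries shared. A weak region 17.5 kb before TRIB1 (chr8:125412329-125412811) scored 6.09 in siFOXA1 2 and 5.23 in siNS 2, with no peak in the other libraries. The farthest shared siNS region of TRIB1 (chr8:125528510-125529256), inside the span of the non-coding gene TRIB1AL, had scores of 24.4 in siNS 1 and 36.2 in siNS 2 and no siFOXA1 peak.

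At MYCN the kept region lay 35.2 kb beyond the gene (chr2:15982171-15982663). It had a score of 8.26 in siFOXA1 2 and no peak in siFOXA1 1, against 17.2 in siNS 1 and 20.5 in siNS 2. Both other regions on that side that the siNS libraries shared, at 72.5 and 91.4 kb from the 5′ end, had no siFOXA1 peak, and 4 more on that side came from 1 siNS library each. Before the gene, the regions at -28.1 and -20.3 kb, the one nearer to MYCN inside the span of the non-coding gene MYCNUT, were also in both siNS libraries only. Another region inside MYCNUT (chr2:15923584-15924122) had a score of 9.5 in siFOXA1 2 and of 10.4 in siNS 2, and no peak in the other libraries. MYCN had the most regions of the 6 genes and also the most single-library regions, 9 of 16, beside 55.4% of all regions in the series.

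At TRIB3 the kept region lay 8.3 kb before the gene (chr20:371480-372503). It had a score of 9.61 in siFOXA1 2 and no peak in siFOXA1 1, against 38.2 in siNS 1 and 37.9 in siNS 2. Another region 1.9 kb before TRIB3 (chr20:378367-378889) had a score of 5.91 in siFOXA1 1 and 34.4 in siNS 2, and no peak in the other libraries. The third shared siNS region of TRIB3, 10 kb before the gene (chr20:369597-370736), ranked in the top 33.7% of siNS 1 and 50.03% of siNS 2 and had no siFOXA1 peak. TRIB2 kept neither of its shared siNS regions, the one over its 5′ end and a weak one inside the gene (chr2:12733803-12734190) that scored 6.9 in siNS 1 and 6.3 in siNS 2. A region 32 kb before TRIB2 (chr2:12684428-12684978) scored 3.66 in siFOXA1 2 and 13.3 in siNS 2 alone. Another, 16.5 kb beyond TRIB2 (chr2:12759246-12759778), scored 8.46 in siFOXA1 2 and 8.13 in siNS 2 alone. TRIB2 also had a region 47.2 kb before the gene (chr2:12668977-12669761) that scored 20.8 in siFOXA1 1 and 22.3 in siFOXA1 2, in the top 17.6 and 18.5% of those lists, and no siNS peak. This was the only one of the 54 regions that both siFOXA1 libraries and neither siNS library had. With the PVT1 peak above, 2 of 54 regions (3.7%) had a siFOXA1 peak and no siNS peak, beside 12.9% of all regions.

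Across all 54 regions, siFOXA1 peaks stood mostly away from gene ends. A siFOXA1 peak was present in 14 regions, of which 13 lay more than 1 kb from an end of their gene. Most regions of the set lay there with or without a siFOXA1 peak. Of the 54, 39 were outside their gene and more than 1 kb from it, and these included all 13. The share of all regions of the series with a siFOXA1 peak was not set beside these counts, so they are not read as particular to the 6 genes. Of the peaks of the 6 genes, 14.3% in siFOXA1 1 and 8.33% in siFOXA1 2 fell within 1 kb of a gene end, against 25% in siNS 1 and 26.1% in siNS 2. The means were 11.3% ± 4.21 in siFOXA1 and 25.5% ± 0.769 in siNS (SD, n = 2 each), without overlap (exact permutation p = 0.333). The difference was -14.2 percentage points, and -8.33 when only peaks that reached the median score of their list were used. Within 10 kb it was -10.6 and the groups overlapped (exact permutation p = 0.667). Each siFOXA1 share is 1 peak, that of TRIB1, among 7 and 12 peaks. In the whole lists the shares were 4.41 and 4.06% in siFOXA1 1 and 2, against 31.3 and 28.2% in siNS 1 and 2.

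**Figure D4:**
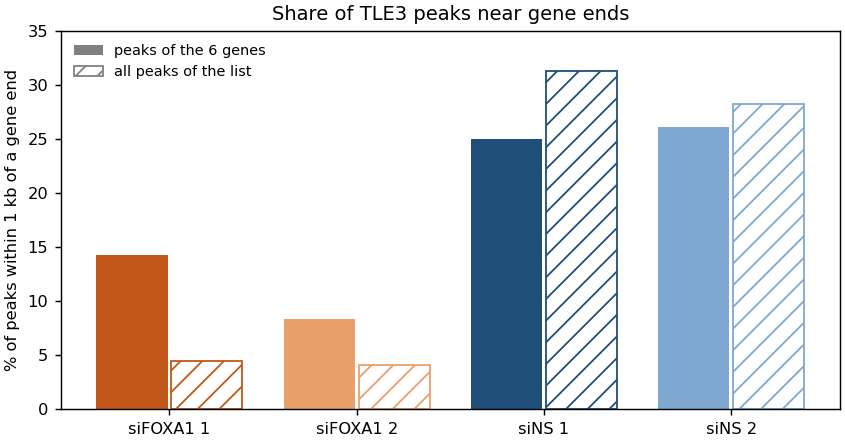
Percentage of TLE3 peaks within 1 kb of a gene end (y axis) in each library (x axis), for the peaks of the 6 genes (filled) and for the whole list (hatched). The 6 genes had 14.3 and 8.33% in siFOXA1 1 and 2, each from 1 peak at TRIB1, and 25 and 26.1% in siNS 1 and 2.

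By gene, all 6 had a region that both siNS libraries shared, beside 61.6% of 20037 protein-coding genes, and all 6 had one within 1 kb of an end, beside 47.7%. A siFOXA1 peak of at least 1 library was found at 5 of the 6, all but MYCL, beside 30.8%. A region shared by both siFOXA1 libraries was present at 3 (MYC, TRIB1 and TRIB2), beside 19.4%. The median number of shared siNS regions was 3 over the 6 genes and 1 over all protein-coding genes, and 1.64% of protein-coding genes had as many as MYC, with 7 or more. These counts were not adjusted for the stretch of genome given to a gene. Per 100 kb of that stretch, shared siNS regions numbered 8.55 at TRIB3, 3.37 at MYC and 2.91 at MYCN. They numbered 2.56 at MYCL, 2.15 at TRIB1 and 0.886 at TRIB2. The same value over all protein-coding genes was not computed. Of the 54 regions, 25 (46.3%) came from a single library, beside 55.4% of all regions. By the number of assigned peaks in the 4 libraries, GALNT2 had the same 4 counts as TRIB1, and DOCK1 and TRIO the same as MYC. Next listed were PIP4K2A for TRIB1 and CD9 for MYC, each 1 peak away in sum, and CA12, 2 peaks from TRIB1. CD9 and CA12 were picked by symbol among ties. In all, 8 genes were as near to MYC as CD9 or nearer, and 11 as near to TRIB1 as CA12 or nearer.

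The distance limit of 100 kb left further regions out. The outermost regions inside it lay 92320 bp from MYCN, 90107 bp from TRIB1, 88508 bp from MYC and 47175 bp from TRIB2. The first ones outside it lay 106243 bp from MYC, with peaks in both siFOXA1 libraries and in siNS 2, 108584 bp from TRIB1, in siNS 2 only, 146929 bp from MYCN, in both siNS libraries only, and 148525 bp from TRIB2, in both siFOXA1 libraries only. Beyond the limit, TRIB2 was the nearest gene of 18 regions, of which 13 had a siFOXA1 peak and 0 a peak in both siNS libraries. MYC was nearest to 33 such regions, of which 10 had a siFOXA1 peak and 10 a peak in both siNS libraries. TRIB1 was nearest to 15, with 7 and 3, and MYCN to 6, with 0 and 2. Of all 8478 regions beyond 100 kb of every protein-coding gene, 51.2% had a siFOXA1 peak. Between TRIB1 and MYC lay 2.3 Mb with 67 regions, of which 8 were assigned to TRIB1, 3 to MYC, 16 to LRATD2 or POU5F1B and 40 to no gene. Peaks in this interval numbered 23 and 26 in siFOXA1 1 and 2, against 17 and 51 in siNS 1 and 2, so the groups overlapped there. Of 13 regions of the interval that both siNS libraries shared, 7 had a siFOXA1 peak and 6 had none. In the series, 83.0% of all such regions had none, and 75.1% of those beyond 1 kb of a gene end. The 13 were not chosen by distance to a gene end, and 40 of the 67 regions had no gene within 100 kb. Neither share is therefore a matched background.

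Genes that work with the MYC and TRIB proteins mostly had TLE3 regions of the siNS libraries too. Of 14 genes of the MYC network, all had a region that both siNS libraries shared, beside 61.6% of protein-coding genes, and all had one within 1 kb of an end, beside 47.7%. The median was 2.5 shared regions, beside 1 over all protein-coding genes. None of the 15 shared regions within 1 kb of an end had a siFOXA1 peak, beside the 93.8% without one in the series. In all, 5 of 35 shared regions (14.3%) had one, beside 17.0%. MLXIP, a partner of the MAX-like factor MLX, had the most, 6 regions with 2 kept. FBXW7, the ubiquitin ligase subunit that recognises MYC, kept 2 of 3. MGA and MNT, MAX partners that oppose MYC, each kept none of 3. MAX itself had 2 shared siNS regions, neither kept. The further genes with 3 shared regions were MXD4, MXI1 and WDR5.

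Of 14 TRIB partner genes, 13 had a shared siNS region, beside 61.6% of protein-coding genes, and 12 had one within 1 kb of an end, beside 47.7%. The median was again 2.5 shared regions, beside 1. They kept 15 of 49 regions (30.6%), beside 17.0% in the series. Most of these 15 lay at RARA and AKT2, so the share is not read as a trait of the whole list. The list was chosen with earlier results of these data known. Of the 18 within 1 kb of an end they kept 3, and 15 had no siFOXA1 peak, beside 93.8% in the series. CEBPB kept none of 9 and CEBPA 2 of 7, both genes of C/EBP factors that TRIB proteins are known to bring to degradation or to bind. RARA, the retinoic acid receptor alpha gene, kept 6 of 8, and AKT2, a kinase gene, kept 4 of 5. COP1, the ligase itself, had 2 shared siNS regions, neither kept, and MAP2K1, the gene of MEK1, had no region assigned. Regions are shared within a locus, so these counts describe the lists and were not tested.

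**Figure D5:**
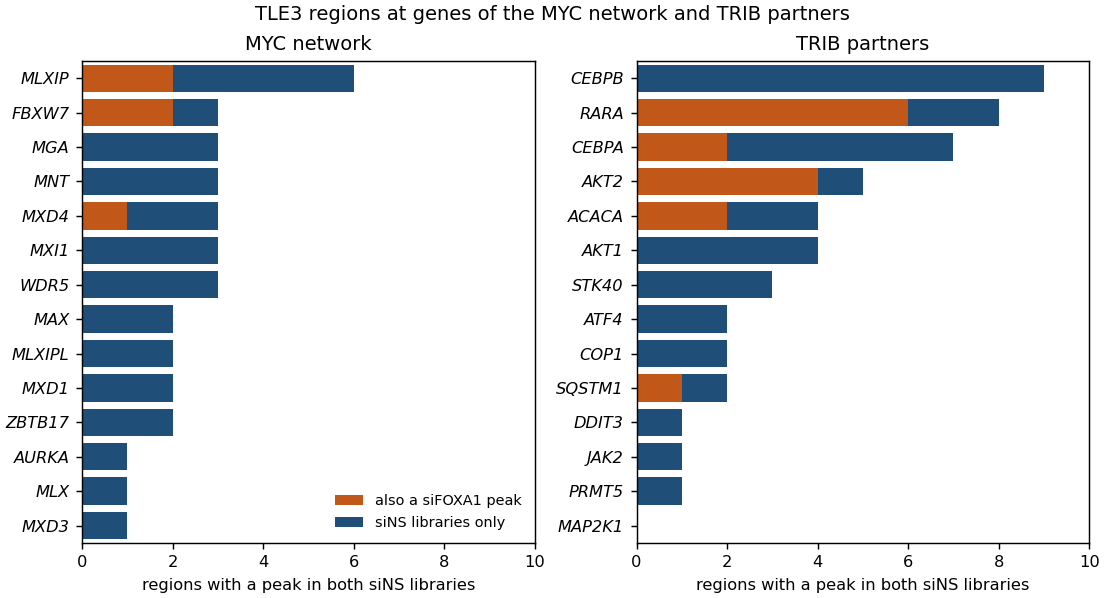
Number of regions with a peak in both siNS libraries (x axis) for each gene of the MYC network and of the TRIB partners (y axis), split into those that also had a siFOXA1 peak (orange) and those in the siNS libraries only (blue). The MYC network had a siFOXA1 peak in 5 of 35 regions and the TRIB partners in 15 of 49.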

How the data were processed

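TLE3 ChIP-seq peaks of MDA-MB-453 cells were compared between siFOXA1 and siNS libraries, 2 of each, grouped by their titles. The list deposited with the sample titled siFOXA1 2 has the number 3 in its file name, and the title was followed. Titles mark the replicates as biological and say no more of their cultures, so the spread between them may be technical. The submitters' processing notes list BWA 0.7.5a, MACS2, SAMtools and Trim Galore, on build hg38. Settings and the role of inputs were not given in the sources used here. Authors deposited 1 list per library, with chromosome, start, end, name and a score. The deposited score has no stated definition, starts just above 2 in each list, and served only for ranks inside 1 list. No list gives reads or depth.

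Mitochondrial peaks (4, 9, 4 and 3 in siFOXA1 1, siFOXA1 2, siNS 1 and siNS 2) were left out. Positions are 1-based. Genes came from a RefSeq table of GRCh38.p14 with 20037 protein-coding genes. A region that touched several spans went to the gene with the nearer end, and each region went to 1 gene. Strands came from the RefSeq promoter table, and for MYC and TRIB1 from general knowledge. Group means were compared by two-sided exact permutation. The members, the 28 related genes and the lists were chosen with earlier results of these data known. The naming rule allowed member regions of at least 2 libraries and the best-ranked single-library region of each gene, not all of which are described, and took the 4 related genes per list with the most shared siNS regions, ties by symbol. Outside that rule, the siFOXA1 1 peak in PVT1, further related genes and the motif letters were chosen after the data were seen. A further gene listed for the MYC network is not reported here. Merging, assignment and overlap counts were tested on simulated data and against bedtools 2.31.1. Python 3.11.15, numpy 2.4.6, pandas 2.3.3, scipy 1.17.1 and matplotlib 3.10.9 were used. Alternatives were a stricter score, lists of equal length, an overlap of 50%, a distance of 10 kb, genes of any type, 5 kb for gene ends, a replicate block and leaving out each library.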

Additional observations from a re-analysis of the deposited data

How the results depend on the processing

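The lower peak number in siFOXA1 at the 6 genes held its direction under all 10 alternatives, with differences of -36.5 to -6 peaks, the smallest with lists of equal length. The replicate block is counted among the alternatives here and below. It returns the main difference by construction, so its direction could not change. Leaving out 1 library gave -36.5 to -22.5 peaks. The lower share near gene ends held its direction under all 11, but the groups overlapped within 10 kb (-10.6, exact permutation p = 0.667), with differences of -19.6 to -8.33 percentage points, and -17.2 to -11.3 with 1 library left out. The kept share of shared siNS regions ranged from 13.6% (without siFOXA1 2) to 36.4% (lists of equal length, 4 of 11 regions). These values lie inside the counting interval of the main value. That interval is wide and takes regions of a locus as independent, so lying inside it does not show that the share is stable. The series share with lists of equal length was not computed. With 1 library left out it ranged from 13.6 to 27.3%. The difference in peaks per 10000 ranged from -4.9 to 0.24, and from -2.77 to 0.24 with 1 library left out. It changed sign without siFOXA1 1 (0.24) and without siNS 2 (0.13). With the replicate number as a block the differences were -29.5 peaks, -1.26 per 10000 and -14.2 percentage points, each with an exact sign-flip p = 0.5, the smallest that 2 pairs allow. Whether the numbers pair the libraries cannot be told from 2 pairs, and the list of siFOXA1 2 has another number in its file name. Region counts per gene moved with several settings. Within 10 kb there were 4 at MYC, 5 each at MYCN, TRIB2 and TRIB3, 3 at TRIB1 and 1 at MYCL. By the nearest gene of any type there were 3 at MYC, 1 each at MYCN and MYCL, 5 at TRIB1, 4 at TRIB2 and 6 at TRIB3. With lists of equal length there were 8 at MYC, 4 at MYCN, 1 at MYCL, 5 at TRIB1 and 3 each at TRIB2 and TRIB3. When peaks had to reach the median score, MYC had 8, MYCN, TRIB1, TRIB2 and TRIB3 had 5 each and MYCL had 1. Without siNS 1 MYCL had 2, and without siNS 2 TRIB1 had 7. Depth is unknown, so a region without a called peak is not shown to be unbound.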
